A study of Mus musculus with 12 samples.

Results

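Oxidative phosphorylation is built from proteins of both the nuclear and the mitochondrial genome, and its genes were followed here in the mouse brain. Members were the genes whose symbols start with mt-Nd, mt-Co, mt-Cytb or mt-Atp, with Ndufa, Ndufb, Ndufc, Ndufs or Ndufv and a number, with Cox4 to Cox8, Uqcr or Atp5, and Cyc1 and Sdha to Sdhd. The rule found 102 genes among the 43629 gene IDs of the count table, 89 of them nuclear and 13 mitochondrial. Usmg5 was counted in because its RefSeq symbol, Atp5md, meets the rule, and 7 symbols that the rule leaves out (Ndufa4l2 and names ending in -ps or -ps and a number) were not members. Cox6c2, Ndufa11b, Ndufb4c and Ndufs6b are annotated as processed pseudogenes, and Atp5s and Cox7a2l encode factors rather than subunits in the strict sense.

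Polyadenylated RNA was sequenced from brains of mice that had been injected into the cerebral ventricles as newborns and were 3 months old when the tissue was taken. The mice had received either an rAAV, a viral vector made from adeno-associated virus, that encodes a collagen domain construct, or PBS. Each treatment comprised 3 female and 3 male libraries, 12 in all, and RNA came from frozen, pulverised forebrain. The construct is named in the title of the series after the secreted protein C1qTNF3, and no group received a vector without the construct, so that vector and construct cannot be told apart. Strain, genotype, promoter and dose are not given in the sources used here. The labels give each sample a number and do not state whether different mice supplied them, so every p-value refers to the spread between libraries alone.

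Libraries held 39272127 to 52323985 counted reads. Of the 12 libraries, 5 went against a label: C1qtnf3 reads went against the treatment label in collagen domain female 1, collagen domain female 3, PBS female 2 and PBS male 1 (23, 8, 1071 and 2675 reads), and sex-linked genes went against the sex label in all of these but collagen domain female 3, and in collagen domain male 3. Groups are given as labelled throughout, and collagen domain and PBS stand for what a library is labelled. All 5 neuronal markers looked at were found in each group, with 5150 to 5755 CPM (read counts scaled to the size of the library) in sum with collagen domain and 5483 to 6224 CPM with PBS. Although the protocol names forebrain, the 8 hindbrain and cerebellar markers summed to 288 and 349 CPM in collagen domain female 2 and collagen domain male 2, and to 254, 158 and 253 CPM in PBS female 2, PBS female 3 and PBS male 3. They summed to 18.0 CPM in PBS male 1 and to at most 2.71 CPM in the other libraries.

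In the inner membrane of the mitochondrion, complexes I and II pass electrons from NADH and succinate to ubiquinone, complex III passes them on to cytochrome c, and complex IV passes them to oxygen, while complexes I, III and IV pump protons whose return drives ATP synthesis in complex V. The mitochondrial genome is transcribed from both strands as long precursors that are cut into separate RNAs, and it encodes core subunits of every complex but II, whereas the nuclear genome encodes all other subunits, the assembly factors and the regulators. Neurons depend on this pathway for the ATP that ion pumping and synaptic transmission use.

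Some mitochondrial genes share bases, and the shared stretches are shown because reads that fall on them belong to both genes. In the GRCm38 sequence, mt-Atp8 and mt-Atp6 share 43 bases at chrM:7927-7969 on the plus strand, mt-Nd4l and mt-Nd4 share 7 bases at chrM:10167-10173, and the ends of mt-Nd5 (plus strand) and mt-Nd6 (minus strand) share 14 bases at chrM:13552-13565. The plus strand of the first and last stretch reads, in full:
mt-Atp8 with mt-Atp6: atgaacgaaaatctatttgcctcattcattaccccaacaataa
mt-Nd5 with mt-Nd6: ttaatctcgagtaa
The library kit does not mark strand, so reads of mt-Nd5 and mt-Nd6 on the bases that these share cannot be assigned to either. Reads on the rest of mt-Nd6 can come from RNA of either strand, so its values are not those of mt-Nd6 RNA alone. The level of mt-Nd6 per kilobase was 78.6 to 85.8% of that of mt-Nd5 in collagen domain libraries and 79.9 to 87.6% in PBS libraries. These shares overlapped, and mt-Nd6 is the member read from the other strand.

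Copies of members elsewhere in the genome were also counted. Gm28661 on chromosome 1 shares 99.5% of the 75-base stretches of mt-Co2 and held 273691 to 423926 reads per library, which was 0.274 to 0.601% more than mt-Co2 itself. Gm28437, a copy of mt-Co3, held 0.253 to 0.341% more than mt-Co3, and Gm10925, whose stretches include 99.5% of those of mt-Atp6, held 56.0 to 62.4% more than mt-Atp6. The 12 genes with such mitochondrial stretches held 3.69 to 4.64% of a library. Gm28438 shares 97.8% of the stretches of mt-Nd3 and held 5.34 to 10.4% more reads, Gm10222 shares 98.7% of those of mt-Nd4l and held 1.71 to 4.44% more, and Gm28439 shares 61.5% of those of mt-Nd4. Of the stretches of mt-Co1, 39.8% recur in other genes. Gm29216, which shares 27.5% of them, held 290481 to 468574 reads per library, against 874964 to 1361320 for mt-Co1. Reads of mt-Co2, mt-Co3, mt-Atp6, mt-Nd3 and mt-Nd4l, and many of mt-Nd4 and mt-Co1, therefore cannot be told apart from reads of these copies. How the authors counted reads that match more than 1 place is not given in the sources used here.

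Nuclear members have copies too. Ndufb4c on chromosome 15 is identical to the coding sequence of Ndufb4 on chromosome 16 over all 387 bases compared, and the pair held 1901 to 4533 and 2301 to 5673 reads per library. All 75-base stretches of Atp5g2 recur in Gm10175 and Gm10231, 76.0% of those of Atp5l recur in other genes, and so do 59.6% for Atp5g1 and 50.4% for Cox7c. Cox6c and Cox6c2 differ at 7 of 228 coding bases, and bases 2 to 61 of the coding sequence, which hold 4 of these, are shown with the differing bases in capitals because these letters are what can tell the copies apart:
Cox6c: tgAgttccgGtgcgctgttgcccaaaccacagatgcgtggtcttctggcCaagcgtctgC
Cox6c2: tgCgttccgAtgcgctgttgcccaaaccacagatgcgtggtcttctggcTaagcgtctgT
Cox6c2 held 102 to 304 reads per library, against 7277 to 15658 for Cox6c, and 45.2% of its 75-base stretches recur in Cox6c. Usmg5 shares 34.7% of its 75-base stretches with Gm14539, which held 361 to 1964 reads. Values of Ndufb4, Ndufb4c, Atp5g1, Atp5g2, Atp5l, Cox7c, Cox6c2 and Usmg5 are therefore uncertain. Further members that share part of their stretches with other genes are not listed here.

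Mitochondrially encoded members stood far above the nuclear ones. Per kilobase of merged exons, the mean level over 12 libraries was 1221 (mt-Atp8) to 16690 CPM (mt-Co1) for the 13 mitochondrial members, with a median of 4780 CPM. The 86 nuclear members that passed the filter on low counts lay between 0.546 (Cox7b2) and 514 CPM per kilobase (Cox8a), with a median of 63.4 CPM. The ranges did not overlap, as the plot of levels by complex shows. A level per kilobase assumes that the merged exons of an annotation of GRCm38 stand for the transcripts in these brains, which is less exact for genes with several transcript ends. Merged exons of Atp5b had 4237 bases and its main annotated transcript 1916, against 619 and 550 for Cox8a. The order of nuclear members by level per kilobase therefore depends on the length used.

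**Figure D1:**
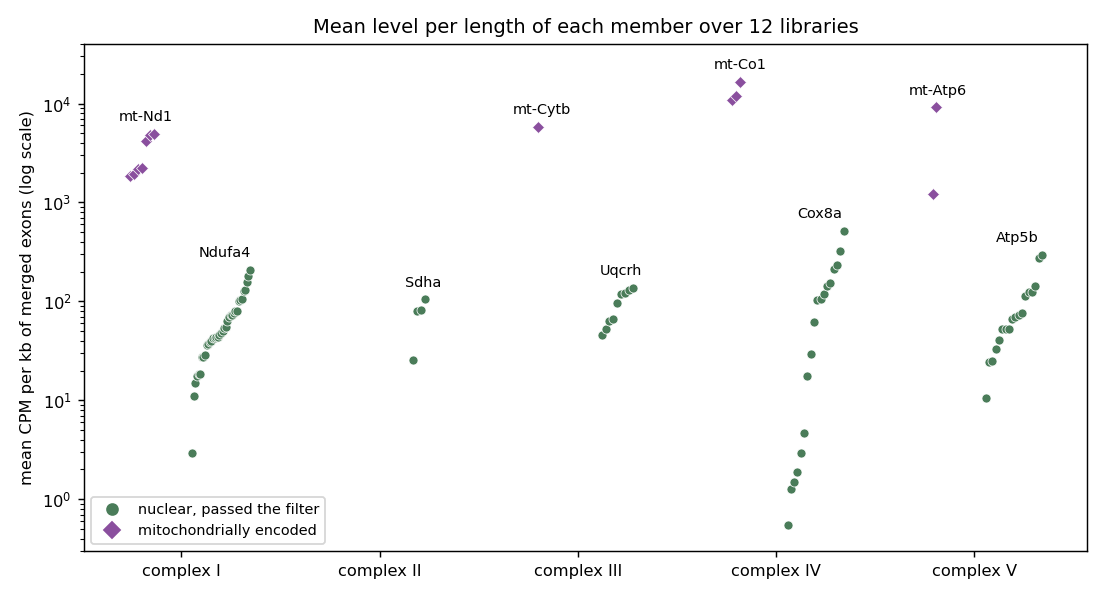
Mean level of each member over 12 libraries, in CPM per kilobase of merged exons on a log axis, by complex. Green points are nuclear members that passed the filter and purple diamonds are mitochondrially encoded members; every diamond lies at or above 1221 CPM per kilobase and every point at or below 514 CPM per kilobase.

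The mitochondrial subunits of complex IV led the order. mt-Co1, the catalytic subunit that reduces oxygen, averaged 24985 ± 2117 CPM with collagen domain and 26586 ± 2565 CPM with PBS (SD, n = 6 each) and held 31.8 to 34.5% of the reads on mitochondrial members. The lowest, median and highest libraries had 21494, 25280 and 27234 CPM with collagen domain, against 23386, 26224 and 30398 CPM with PBS. The treatments overlapped, with the highest level in PBS male 3 and the lowest in collagen domain male 1. mt-Co3 and mt-Co2 followed at 11864 and 10962 CPM per kilobase. mt-Co3 had 8053, 9026 and 10166 CPM with collagen domain, against 8076, 9314 and 11105 CPM with PBS, and mt-Co2 had 6702, 7289 and 7996 CPM, against 6229, 7579 and 8823 CPM. Both were highest in PBS female 1 and overlapped between treatments. mt-Co1, mt-Co3 and mt-Co2 have the copies described above, and what the copies add to these values was not tested.

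mt-Atp6, which forms part of the proton channel of complex V, came next at 9135 CPM per kilobase. Its lowest, median and highest libraries had 5499, 6127 and 6847 CPM with collagen domain, against 5733, 6072 and 7261 CPM with PBS. mt-Atp8, read from the same RNA, had 187, 232 and 288 CPM with collagen domain, against 230, 258 and 287 CPM with PBS, and was lowest in collagen domain female 2. Per kilobase, mt-Atp8 stood at 9.92 to 14.1% of mt-Atp6 with collagen domain and 13.1 to 14.8% with PBS, again lowest in collagen domain female 2. As both are read from the same RNA, this share does not compare the levels of separate RNAs. Whether counting on a gene of 204 bases has a part in the share was not tested. mt-Cytb, the cytochrome b of complex III, had 5640, 6654 and 7205 CPM with collagen domain, against 6000, 6636 and 7607 CPM with PBS. All of these ranges overlapped.

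The 7 mitochondrial subunits of complex I, all of its membrane arm, fell into a higher and a lower set by level per kilobase. mt-Nd1, mt-Nd4 and mt-Nd2 stood at 4911, 4780 and 4210 CPM per kilobase. mt-Nd5, mt-Nd4l, mt-Nd3 and mt-Nd6 stood at 2206, 2190, 1958 and 1833 CPM per kilobase. Whether counting on short genes, such as mt-Nd4l (297 bases) and mt-Nd3 (348 bases), has a part in these sets was not tested. Reads on mt-Nd6 can come from RNA of either strand. mt-Nd1 had 4292, 4594 and 5219 CPM with collagen domain, against 3995, 4529 and 5494 CPM with PBS. mt-Nd4 had 5805, 6490 and 7097 CPM with collagen domain, against 5978, 6550 and 7396 CPM with PBS, and mt-Nd2 had 3834, 4451 and 4671 CPM, against 4058, 4339 and 5090 CPM. The treatments overlapped for each of them.

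mt-Nd5 had 3277, 3681 and 4863 CPM with collagen domain, against 3690, 4077 and 4583 CPM with PBS. mt-Nd6 had 799, 868 and 1141 CPM with collagen domain, against 839, 971 and 1142 CPM with PBS. Taken relative to each library's median over the mitochondrial members, both were high in the same libraries. The log2 deviations of mt-Nd5 and mt-Nd6 were 0.23 and 0.17 in collagen domain female 2, 0.28 and 0.27 in collagen domain male 2, 0.11 and 0.09 in PBS female 2 and 0.14 and 0.18 in PBS female 3. These are 4 of the 5 libraries with the highest hindbrain marker sums, and in PBS male 3, the other one, the values were -0.07 and -0.03. Whether tissue composition, or reads on mt-Nd6 from RNA of the other strand, have a part in this was not tested.

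mt-Nd3 spread more between libraries than any other mitochondrial member, with an SD of log2 CPM of 0.334, against 0.110 to 0.190 for the other 12. It had 491, 642 and 795 CPM with collagen domain, against 497, 668 and 996 CPM with PBS, and was highest in PBS female 1 and PBS male 3. mt-Nd3, mt-Nd4l and mt-Nd4 have the copies described above, and what the copies add to these values was not tested. mt-Nd4l, whose gene overlaps that of mt-Nd4, had 529, 676 and 703 CPM with collagen domain, against 613, 653 and 682 CPM with PBS. Its level per kilobase was 41.5 to 49.4% of that of mt-Nd4 with collagen domain and 41.1 to 47.6% with PBS.

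Among the 37 nuclear members of complex I that passed the filter, Ndufa4 had the highest level per kilobase (207 CPM), followed by Ndufb9 (180 CPM). Ndufa4 falls under complex I by its symbol but is now regarded as a subunit of complex IV. It had 185, 257 and 314 CPM with collagen domain, against 201, 275 and 475 CPM with PBS, and Ndufb9, an accessory subunit, had 120, 170 and 209 CPM, against 136, 184 and 286 CPM. The highest PBS libraries were PBS male 3 and PBS female 1 for each of these, and the lowest library was collagen domain female 2. Ndufv1, which holds the flavin that oxidises NADH, had another order of libraries, with 121, 125 and 136 CPM with collagen domain, against 122, 129 and 136 CPM with PBS. Its highest library lay 1.13-fold above its lowest, against 2.57-fold for Ndufa4.

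Complex II, the only complex with no mitochondrially encoded subunit, also oxidises succinate in the tricarboxylic acid cycle. Its flavin subunit Sdha had 400, 420 and 468 CPM with collagen domain, against 416, 438 and 460 CPM with PBS. The membrane anchor Sdhd had 86.3, 96.6 and 105 CPM with collagen domain, against 89.4, 96.0 and 132 CPM with PBS. The iron-sulfur subunit Sdhb had 123, 169 and 194 CPM, against 130, 174 and 275 CPM, and Sdhc, the other anchor, had 76.8, 81.0 and 88.2 CPM, against 79.7, 82.7 and 88.5 CPM. Although these 4 proteins form a single complex, the SD of log2 CPM was 0.354 for Sdhb, 0.179 for Sdhd, 0.080 for Sdha and 0.062 for Sdhc.

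In complex III, the small subunits Uqcrh and Uqcr10 had the highest levels per kilobase, 138 and 130 CPM. Uqcrh, the hinge protein near cytochrome c1, had 133, 163 and 183 CPM with collagen domain, against 136, 169 and 235 CPM with PBS. Uqcr10 had 50.7, 69.9 and 83.4 CPM with collagen domain, against 59.8, 73.1 and 111 CPM with PBS. Both were lowest in collagen domain female 2. The large core protein Uqcrc1 had the smallest spread of all nuclear members that passed the filter, an SD of log2 CPM of 0.051, with 205, 214 and 228 CPM with collagen domain and 210, 222 and 228 CPM with PBS.

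Cox8a and Cox6a1, small subunits of complex IV, had the highest levels per kilobase of merged exons among all nuclear members, 514 and 323 CPM. Cox8a had 260, 309 and 343 CPM with collagen domain, against 274, 306 and 398 CPM with PBS, and Cox6a1 had 197, 223 and 234 CPM, against 190, 221 and 295 CPM. Cox7b, another small subunit, had 100, 153 and 187 CPM with collagen domain, against 117, 168 and 312 CPM with PBS, a 3.12-fold range over the 12 libraries. All 3 genes overlapped between treatments and were highest in PBS male 3.

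Several subunits of complex IV have a second gene that other tissues use, and the brain libraries held little of these. Levels per kilobase were taken as shares of the sum over the genes of a subunit. Cox4i2, known from lung, made up 0.592 ± 0.180% of Cox4i with collagen domain and 0.602 ± 0.164% with PBS (SD, n = 6 each), the rest being Cox4i1. Cox6a2 and Cox7a1, the heart and muscle forms, made up 1.5 ± 0.265% and 1.94 ± 0.513% with collagen domain, against 1.36 ± 0.311% and 1.88 ± 0.210% with PBS (SD, n = 6 each). The 5 markers of skeletal and heart muscle looked at summed to 9.13 to 13 CPM with collagen domain and 8.40 to 13.4 CPM with PBS.

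Cox8b, another muscle form, made up 0.299 ± 0.0710% of Cox8 with collagen domain and 0.287 ± 0.0623% with PBS, and Cox6b2 and Cox7b2, known from testis, made up 0.878 ± 0.314% and 0.471 ± 0.448% with collagen domain and 0.810 ± 0.198% and 0.330 ± 0.167% with PBS (SD, n = 6 each). The 3 testis markers did not pass the filter and summed to at most 0.194 CPM with collagen domain and 0.226 CPM with PBS. Cox7b2 rested on 5 to 37 reads per library. Cox8c, a testis form of Cox8, had at most 1 read in any library and did not pass the filter, and neither did the pseudogenes Ndufa11b (0 to 4 reads) and Ndufs6b (0 to 8 reads). The pairs Cox4i1 and Cox4i2, Cox6a1 and Cox6a2, Cox6b1 and Cox6b2, Cox7a1 and Cox7a2, Cox7b and Cox7b2, and Cox8a and Cox8b share no identical coding stretch longer than 14 bases, so 75-base reads of one gene of a pair are not expected on the other.

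The major forms carried the CPM. Cox4i1 had 285, 323 and 345 CPM with collagen domain, against 276, 327 and 428 CPM with PBS. Cox6b1 had 119, 156 and 182 CPM with collagen domain, against 132, 158 and 249 CPM with PBS, and Cox7a2 had 99, 131 and 164 CPM, against 111, 138 and 212 CPM. Cox7a2l, a factor of supercomplex assembly related to them in sequence, had 127, 141 and 163 CPM with collagen domain, against 130, 155 and 203 CPM with PBS. None of these separated the treatments.

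Complex V was led per kilobase by Atp5b (295 CPM), the beta subunit with the catalytic sites, and Atp5a1 (276 CPM), the alpha subunit. Atp5b had 1168, 1221 and 1258 CPM with collagen domain, against 1183, 1266 and 1485 CPM with PBS, and it held 8.89 to 12% of the reads on nuclear members. Atp5a1 had 802, 846 and 916 CPM with collagen domain, against 825, 869 and 943 CPM with PBS. The c subunit of the rotor ring is encoded by 3 genes whose mature protein is the same. Atp5g3 made up 58.8 ± 0.983% of it with collagen domain and 59.5 ± 1.04% with PBS, Atp5g2 28.0 ± 0.734% and 27.5 ± 1.09%, and Atp5g1 13.1 ± 0.427% and 12.9 ± 0.399% (SD, n = 6 each). The shares of Atp5g2 and Atp5g1 include any reads from the copies described above, and none of the shares differed between treatments by more than the spread between libraries. Merged exons, which set these shares, were 4912 bases for Atp5g1, 1675 for Atp5g2 and 2181 for Atp5g3. The main annotated transcripts have 596, 441 and 714 bases in that order, so the shares depend on the length used.

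**Figure D2:**
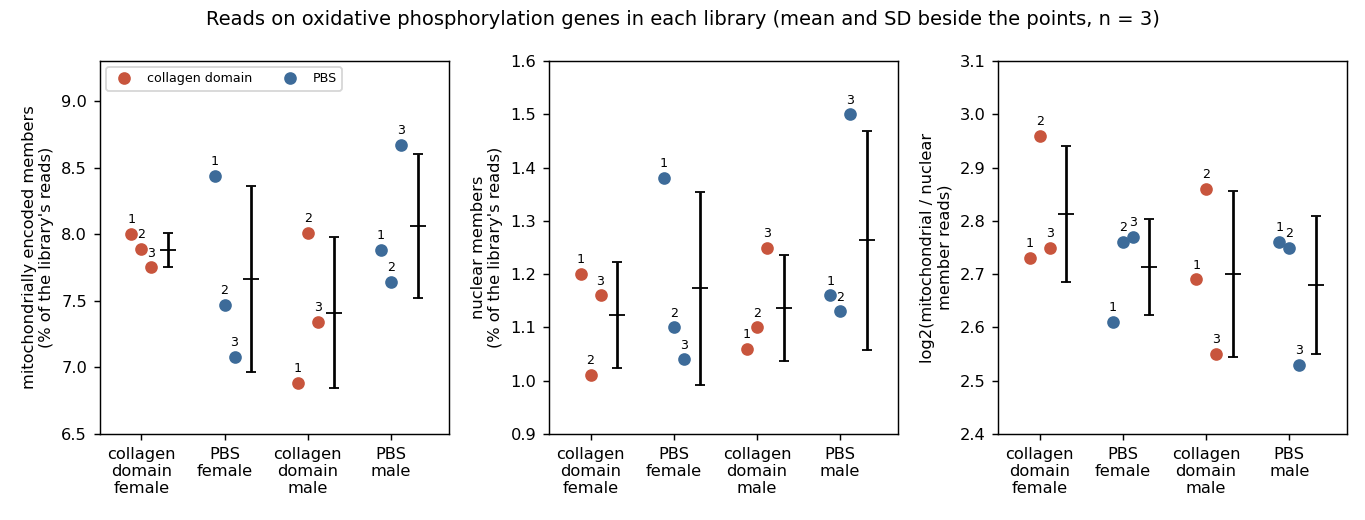
Reads on oxidative phosphorylation genes in each library: mitochondrial members as a percentage of the library's reads (left), nuclear members as a percentage (middle) and log2 of mitochondrial over nuclear member reads (right). Each point is a library, numbered within its labelled group, and the bars beside the points are the mean and SD of 3 libraries; PBS female 1 and PBS male 3 are highest in the left and middle panels, at 8.44 and 8.67% and at 1.38 and 1.5%.

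The genes of both genomes were then compared within each library. Mitochondrial members held 6.88, 7.82 and 8.01% of a library's reads with collagen domain (lowest, median and highest), against 7.08, 7.76 and 8.67% with PBS. Nuclear members held 1.01, 1.13 and 1.25% with collagen domain, against 1.04, 1.15 and 1.5% with PBS. Both shares were highest in PBS male 3 and PBS female 1, outside the range of every collagen domain library, and the other 4 PBS libraries lay within it. In bulk tissue such a share cannot tell fewer cells of a type from less RNA per cell.

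The log2 ratio of mitochondrial over nuclear member reads was 2.76 ± 0.142 with collagen domain and 2.70 ± 0.103 with PBS (SD, n = 6 each), a difference of 0.06 that was smaller than the spread between libraries. Between the sexes it was 2.69 ± 0.130 in male and 2.76 ± 0.114 in female libraries (SD, n = 6 each). With collagen domain the ratio was 2.73, 2.96 and 2.75 in females 1 to 3 and 2.69, 2.86 and 2.55 in males 1 to 3. With PBS it was 2.61, 2.76 and 2.77 in females 1 to 3 and 2.76, 2.75 and 2.53 in males 1 to 3. Collagen domain female 2 was the highest library and PBS male 3 the lowest, and the treatments overlapped. Without PBS female 1 and PBS male 3 the difference between treatments was 0.00, and without the 5 libraries that went against a label it was 0.18.

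These ratios moved mostly with the nuclear genes. The median log2 deviation of the 86 nuclear members from their own means over 12 libraries was 0.10, -0.27 and 0.00 in collagen domain females 1 to 3 and -0.19, -0.12 and 0.11 in collagen domain males 1 to 3, against 0.36, -0.12 and -0.24 in PBS females 1 to 3 and -0.01, -0.03 and 0.42 in PBS males 1 to 3. For the 13 mitochondrial members it was 0.10, 0.00 and 0.06 in collagen domain females, -0.18, 0.00 and -0.13 in collagen domain males, 0.20, -0.05 and -0.14 in PBS females and -0.01, -0.01 and 0.18 in PBS males, in the same order. Both genomes' genes stood high in PBS female 1 and PBS male 3. In collagen domain female 2 only the nuclear median was low, and in collagen domain male 3 the nuclear median was up while the mitochondrial one was down.

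Taking off each library's own median showed how much of the spread the members shared. The median SD of log2 CPM fell to 0.125 after this step, against 0.250 before it, for the nuclear members, and 71 of 86 became smaller. For the mitochondrial members it was 0.068 after and 0.136 before, and all 13 became smaller. The highest level over 12 libraries was in PBS male 3 for 59 nuclear members and in PBS female 1 for 19, and the lowest was in collagen domain female 2 for 49 and in collagen domain male 1 for 13. Among the mitochondrial members, 7 were highest in PBS female 1 and 3 in PBS male 3. Neither PBS female 1 nor PBS male 3 went against a label.

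**Figure D3:**
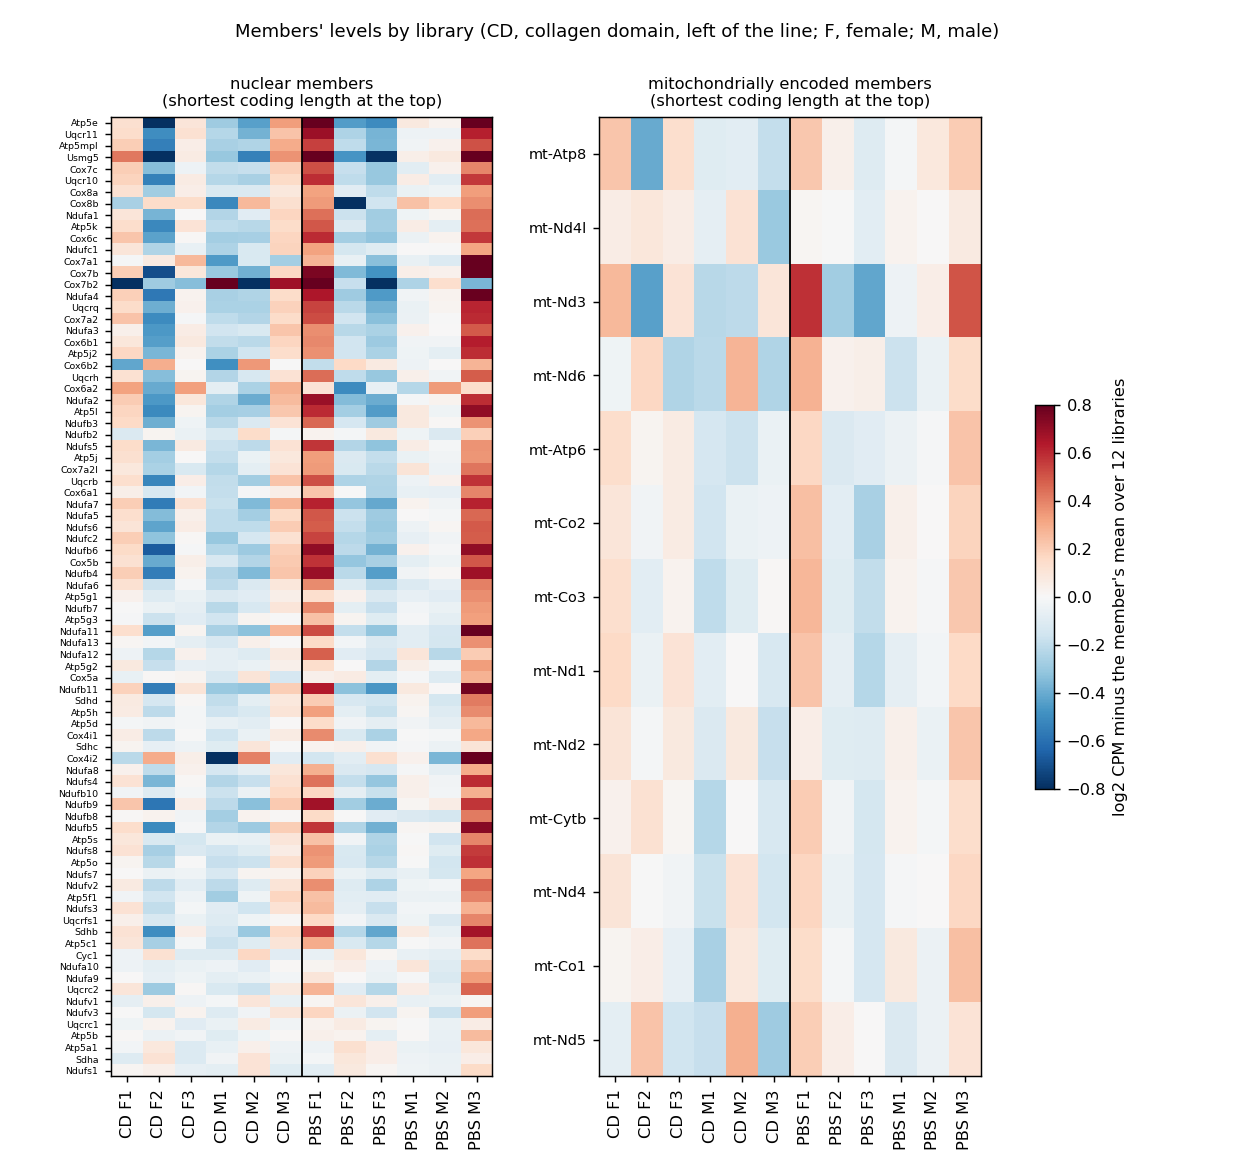
Log2 CPM of each member in each library minus the member's mean over 12 libraries, for nuclear members with an annotated coding sequence (left) and 13 mitochondrial members (right), shortest coding length at the top. CD is collagen domain, F female and M male; the columns PBS F1 and PBS M3 are red and CD F2 is blue for most nuclear rows, and the colour fades towards the long genes at the bottom.

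The nuclear members that moved between libraries were mostly the short ones. Across the 84 nuclear members that passed the filter and have an annotated coding sequence, the SD of log2 CPM had a Spearman correlation of -0.64 with coding length and of -0.25 with mean level. Across 15558 other protein-coding genes of the same 12 libraries these were -0.10 and -0.61. All genes share the libraries and the correlations are descriptions, with no test. The 25 nuclear members with under 300 coding bases had a median SD of 0.329, and the 9 members of 1200 to under 3000 bases had one of 0.080, against 0.288 and 0.145 for the other protein-coding genes of these lengths.

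The direction by library was the same in other short genes. For members under 300 coding bases the median deviation was -0.43 in collagen domain female 2, 0.51 in PBS female 1 and 0.57 in PBS male 3, and for 298 other protein-coding genes of that length it was -0.22, 0.32 and 0.32 in these libraries. For genes of 3000 or more coding bases it was 0.11, -0.17 and -0.20. The 94 cytosolic ribosomal protein genes that passed the filter, which are short as well, had median deviations of -0.38, 0.48 and 0.45. The mitochondrial ribosomal RNA mt-Rnr2, which is no member, ranged between 2941 and 10293 CPM and was lowest and highest in collagen domain female 2 and PBS female 1. Whether RNA quality or library preparation has a part in these differences was not tested.

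Usmg5, a small subunit of complex V with 174 coding bases, had 54.2, 118 and 170 CPM with collagen domain, against 73.4, 133 and 305 CPM with PBS, a 5.63-fold range over the libraries and an SD of log2 CPM of 0.731. Atp5e, the epsilon subunit with 156 coding bases, had 47.1, 81.7 and 109 CPM with collagen domain, against 60.9, 89.7 and 171 CPM with PBS. Both were lowest in collagen domain female 2 and highest in PBS male 3. With Cox7b (0.487), Cox6c2 (0.426) and the sparsely read Cox7b2 (0.816) they had the largest SDs of the members. At the other end, 10 nuclear members had an SD under 0.1, among them Uqcrc1, Ndufv1, Sdhc, Atp5a1, Sdha, Ndufs1, Atp5b, Ndufa10 and Ndufb2. Of these Sdhc (507 coding bases) and Ndufb2 (315 coding bases) have short coding sequences. Conversely Sdhb (846 coding bases) spread with an SD of 0.354, so coding length did not fix the order. The main annotated transcript has 3171 bases for Sdhc and 1142 bases for Sdhb, so in this pair the longer transcript had the smaller spread. For Ndufb2 it has 455 bases, so Ndufb2 is short by transcript length as well.

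**Figure D4:**
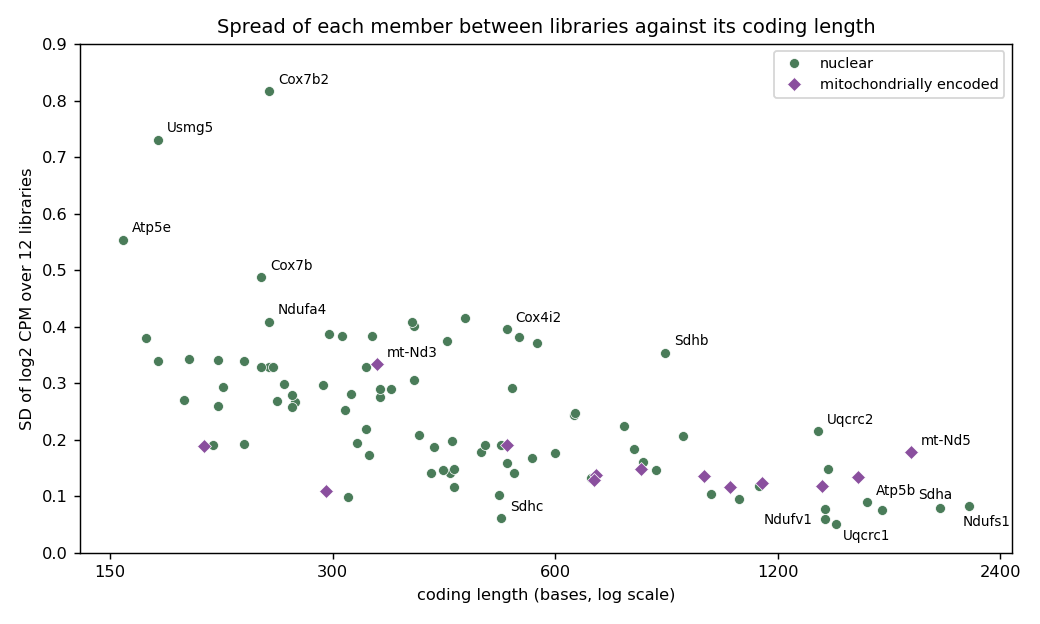
SD of log2 CPM over 12 libraries (vertical axis) against coding length in bases (log axis), for nuclear members (green points) and mitochondrially encoded members (purple diamonds). Usmg5, Atp5e and Cox7b at the short end have SDs of 0.731, 0.554 and 0.487, while Uqcrc1, Ndufv1, Sdha and Atp5b at the long end lie under 0.1.

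By role, the 7 nuclear core subunits of complex I, which carry its flavin and most of its iron-sulfur clusters, had a median SD of 0.132, and the 30 other nuclear members of complex I had one of 0.273. The median deviation of the core subunits was -0.05 in collagen domain female 2 and 0.19 in PBS female 1. For the other 30 members it was -0.36 and 0.47 in these libraries. Core subunits are also the longer genes, and role and length were not separated.

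Promoters are shown for the nuclear members with the largest and the smallest spread among those with a mean of 10 CPM or more and a RefSeq entry, since these stand at the ends of the pattern. Each is the 250 bases before the annotated start in GRCm38.p6, with letters of a searched motif in capitals. Usmg5 lies on the minus strand at chr19:47090648-47090897, and Uqcrc1 lies on the plus strand at chr9:108936398-108936647:
Usmg5: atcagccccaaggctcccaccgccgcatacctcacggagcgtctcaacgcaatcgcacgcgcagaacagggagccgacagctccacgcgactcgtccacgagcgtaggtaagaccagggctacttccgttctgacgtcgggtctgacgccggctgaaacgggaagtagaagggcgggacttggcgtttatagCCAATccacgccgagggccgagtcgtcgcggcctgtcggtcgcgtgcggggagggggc
Uqcrc1: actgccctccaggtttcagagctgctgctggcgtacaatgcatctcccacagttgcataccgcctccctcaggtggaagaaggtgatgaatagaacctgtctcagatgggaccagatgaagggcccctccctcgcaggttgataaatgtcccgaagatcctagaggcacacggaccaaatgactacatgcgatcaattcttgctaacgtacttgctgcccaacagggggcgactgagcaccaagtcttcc
The capitals mark CCAAT, letters that the factor NF-Y binds. The Usmg5 stretch is 65.6% G and C with 32 CpG, and the Uqcrc1 stretch is 54.0% G and C with 8 CpG.

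Motifs were searched on both strands in the RefSeq windows of 250 bases before to 50 after the start, which matched 67 nuclear members. GCGCATGCG, letters of NRF1, a known activator of these genes, was held by 8 members (11.9%), among them Uqcrc1 within the bases after its start, against 1.81% of 27025 windows of all genes and 3.26% of 12164 windows of protein-coding genes tested here. AAGATGGC, letters of YY1, was held by 8 members (11.9%), against 2.88% and 4.07%. TCAAGGTCA, letters of the ERR receptors, was held by 2 members (2.99%), against 0.407% and 0.312%. CCGGAAGT, letters of the ETS family, was held by 5 members (7.46%), against 4.0% and 7.16%, and CCAAT by 30 (44.8%), against 37.9% and 38.3%. All 5 shares were higher among members than in both backgrounds, that of ETS by little over the protein-coding genes tested, which describes letters and not binding.

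The comparison of treatments asked whether these genes differed between mice given the collagen domain vector and mice given PBS. No member passed the test: edgeR's quasi-likelihood test with Benjamini-Hochberg adjustment over 19145 genes called 0 of the 99 members tested, against a background of 0% of all genes. At an unadjusted p under 0.05 it found 0 members, against 1.85% of all genes (354 genes), and DESeq2 and limma-voom called 0 members as well. The CPM of the 2 treatments did not separate for any of the 99 members, against 0.0679% of all genes. A p that misses the threshold does not show that levels were alike.

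The fold changes of the members nevertheless pointed mostly one way without passing the test. The median log2 fold change (collagen domain over PBS) was -0.14 over the 86 nuclear members, of which 1 (Cox6a2, 0.08) lay above 0, and -0.05 over the 13 mitochondrial members, of which none lay above 0. Over all genes tested it was 0.00, with 9597 of 19145 above 0. By complex the nuclear median was -0.16 for I, -0.06 for II, -0.17 for III, -0.13 for IV and -0.13 for V. For complex I it was -0.06 over the 7 core subunits and -0.16 over the other 30. Members are read from the same libraries and move together, so their number adds no replicates.

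The direction turned without PBS female 1 and PBS male 3. Both are PBS libraries and were chosen after their high member levels were seen, so leaving them out raises most fold changes by the choice itself. Without them the nuclear median was 0.05 and the mitochondrial one 0.03. Leaving out 1 library at a time kept the nuclear median between -0.20, without PBS female 3, and -0.06, without PBS female 1 or without PBS male 3. Without the 5 libraries against a label it was -0.38, with 37 of 99 members at an unadjusted p under 0.05, against 5.79% of all genes in that fit (1138 of 19661), and 0 members and 2 genes called by edgeR. Without the 4 against the treatment label it was -0.30. Without the 5 against a label and without PBS female 1 and PBS male 3 it was -0.08, and the mitochondrial median was 0.06. In that fit PBS female, PBS male and collagen domain female each keep a single library, and its counts at an unadjusted p are not given. The smaller median there does not show that the difference was gone.

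**Figure D5:**
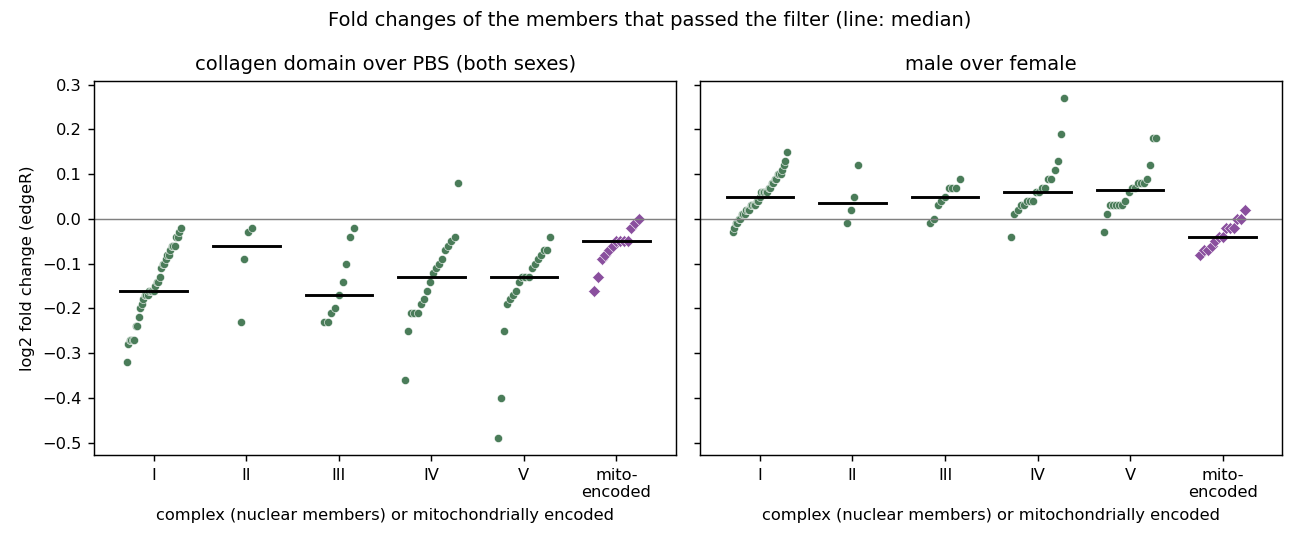
Log2 fold change of each member that passed the filter, for collagen domain over PBS in both sexes (left) and for male over female (right), by complex for nuclear members (green points) and for mitochondrially encoded members (purple diamonds). Lines are medians, -0.16 for complex I at the left of the first panel and -0.05 for the mitochondrial members at its right; no member passed the test in either comparison.

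The members of smallest p are named as values. Ndufa10, an accessory subunit of complex I, had 115, 118 and 123 CPM with collagen domain, against 114, 126 and 145 CPM with PBS, and a log2 fold change of -0.10 (SE 0.0549, edgeR adjusted p = 1). Atp5g3, the main c subunit gene, had 217, 236 and 248 CPM with collagen domain, against 228, 246 and 307 CPM with PBS, and a log2 fold change of -0.14 (SE 0.0789, edgeR adjusted p = 1). The treatments overlapped for both. Cox7a2l stood at -0.18 (SE 0.113), Ndufb6 at -0.32 (SE 0.213) and Cox7b at -0.36 (SE 0.258), each with an adjusted p of 1 by edgeR. Ndufb6, an accessory subunit of complex I, had 17.5, 25.5 and 31.6 CPM with collagen domain, against 21.3, 28.0 and 45.3 CPM with PBS.

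Those with large spread had larger fold changes and larger errors. Usmg5 stood at -0.49 (SE 0.394), Atp5e at -0.40 (SE 0.294) and Cox6c2 at -0.25 (SE 0.230), whereas Uqcrc1 stood at -0.04 (SE 0.0433), Ndufv1 at -0.02 (SE 0.0463) and Sdha at -0.02 (SE 0.0560). Nuclear members under 300 coding bases had a median log2 fold change of -0.19 and other protein-coding genes of that length one of -0.10, while for 1200 to under 3000 bases these were -0.04 and 0.02. Among the mitochondrial members, mt-Nd3 stood lowest at -0.16 (SE 0.184) and mt-Nd1 highest at 0.00 (SE 0.0824).

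Within females, edgeR called 0 of the 99 members, against 0% of all genes, with 0 members and 280 genes at an unadjusted p under 0.05. The median log2 fold change was -0.08 over nuclear and 0.03 over mitochondrial members. The direction turned with single libraries: without PBS female 1 these were 0.12 and 0.15, without collagen domain female 2 they were 0.01 and 0.08, and without PBS female 3 they were -0.20 and -0.04. Cox7b2 had the smallest p (log2 fold change -1.14, SE 0.738, edgeR adjusted p = 1), on few reads. Atp5g3 followed at -0.15 (SE 0.117), Ndufa12, an accessory subunit of complex I, at -0.19 (SE 0.160), Ndufv1 at -0.08 (SE 0.0648) and Uqcrc1 at -0.07 (SE 0.0637), each with an adjusted p of 1. Ndufa12 had 66.1, 58.0 and 69.4 CPM in collagen domain females 1 to 3, against 94.6, 63.9 and 61.9 CPM in PBS females 1 to 3. Without PBS female 1, its fold change was 0.04.

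Within males, edgeR called 0 of the 99 members, against 0% of all genes, with 0 members and 325 genes at an unadjusted p under 0.05. The median log2 fold change was -0.20 over nuclear and -0.16 over mitochondrial members. Without PBS male 3 these were -0.03 and -0.09, and without collagen domain male 3 they were -0.31 and -0.16. Cox7a1, the muscle form, had 1.11, 1.40 and 1.26 CPM in collagen domain males 1 to 3, against 1.46, 1.41 and 2.69 CPM in PBS males 1 to 3, and a log2 fold change of -0.56 (SE 0.261, edgeR adjusted p = 1). Cox7a1 rested on 45 to 103 reads per library. mt-Atp6 stood at -0.18 (SE 0.0996), mt-Cytb at -0.17 (SE 0.0988), mt-Co1 at -0.18 (SE 0.111) and Ndufa10 at -0.13 (SE 0.0811), each with an adjusted p of 1.

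Whether the treatment effect differed between the sexes was tested by the interaction, male minus female. It called 0 of the 99 members, against 0% of all genes, with 0 members and 263 genes at an unadjusted p under 0.05. The median was -0.12 over nuclear and -0.20 over mitochondrial members, and 0.00 over all genes. As 4 of the 12 libraries went against their sex label, the labelled sexes are mixed. Without the 5 libraries against a label the nuclear median was -0.37 within females, -0.39 within males and -0.01 for the interaction. The mitochondrial median of the interaction was then -0.13, and a single collagen domain female library remained. With 1 library left out, the interaction's nuclear median lay between -0.33 (without PBS female 1) and 0.06 (without PBS male 3). The mitochondrial one lay between -0.30, without PBS female 1, and -0.11, without PBS female 3 or PBS male 3. Cox7b2 stood at 2.14 (SE 1.03, edgeR adjusted p = 1), Cox7a1 at -0.69 (SE 0.367), mt-Atp6 at -0.26 (SE 0.141), mt-Nd2 at -0.25 (SE 0.136) and mt-Nd4l at -0.20 (SE 0.130).

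Male libraries were also compared with female libraries, adjusted for treatment. edgeR called 0 of the 99 members, against 0% of all genes, and at an unadjusted p under 0.05 it found 0 members and 377 genes. The median log2 fold change (male over female) was 0.05 over nuclear members, with 77 of 86 above 0, and -0.04 over mitochondrial members, with 2 of 13 above 0. The smallest p were those of Atp5g2 (0.09, SE 0.0806), Ndufb10 (0.08, SE 0.0783), Ndufa3 (0.15, SE 0.140), mt-Cytb (-0.07, SE 0.0729) and Ndufa10 (0.05, SE 0.0549), each with an adjusted p of 1. Ndufb10 and Ndufa3 are accessory subunits of complex I. Leaving out 1 library at a time moved the nuclear median between -0.03 and 0.14 and the mitochondrial one between -0.08 and 0.01, so both directions turned with single libraries, and 4 of the 12 went against their sex label.

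Other genes of the pathway were read from the same fit of treatment in both sexes. None of the assembly factors (47 passed), the mitochondrial ribosome (76), the import, carrier and membrane genes (29), the regulators and mitochondrial DNA maintenance genes (30), the tricarboxylic acid cycle (18) or glycolysis (17) was called by edgeR, and at an unadjusted p under 0.05 there was 1 gene, of the mitochondrial ribosome. The median log2 fold changes were -0.08, -0.09, -0.05, -0.03, -0.04 and -0.02 in that order, and -0.15 for 94 cytosolic ribosomal proteins. Members above 0 numbered 6 of 47, 3 of 76, 5 of 29, 10 of 30, 3 of 18 and 4 of 17, and 9 of 94 for the cytosolic ribosomal proteins. Differences between these lists and the nuclear members of oxidative phosphorylation (median -0.14) were not tested.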

How the data were processed

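Libraries of poly(A) RNA were made with a TruSeq version 2 kit, which does not mark strand, and read as 75-base pairs, per the labels' protocols. Raw read counts for each Ensembl gene were deposited by the authors in 1 table. The names STAR, DESeq2 and GRCm39 are given per the submitters' processing notes, and the counting tool and the treatment of multiply mapped reads are not given in the sources used here. Symbols, lengths and transcript sequences came from GENCODE M21 (GRCm38) for 42462 of 43629 IDs, and promoters from RefSeq (GRCm38.p6). Merged exons gave the length of a gene, and 75-base stretches of transcripts were compared across genes.

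The test was that of edgeR 4.0.16 under R 4.3.3 (filterByExpr on the 4 groups, 19145 genes; TMM; quasi-likelihood F-test, two-sided; Benjamini-Hochberg over all genes; threshold 0.05), with sex and treatment as additive terms in all 12 libraries, or a fit of the 4 groups within sexes and for the interaction. The common biological coefficient of variation was 0.178. CPM used TMM-scaled totals, and log2 CPM a prior count of 2. The fits were tested on simulated data. Alternatives were DESeq2 1.42.0, limma-voom 3.58.1, relative log expression factors, library sizes from nuclear genes, other filters and threshold, a replicate block, a hindbrain covariate and libraries left out. A library went against its treatment label with under 1000 C1qtnf3 reads in collagen domain or 1000 or more in PBS. Chi-square per degree of freedom between libraries of a labelled group was 11.1 to 94.6 over 12 pairs, so none repeated another.

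The members and lists were chosen with earlier results of these data known. Named genes are the mitochondrial members, the top 2 nuclear members per complex by level per length, the 5 of smallest p per contrast, the 5 of largest SD, the gene pairs and trios, and the members that did not pass the filter, 50 in all. Sdhb, Sdhc, Ndufb2, Ndufs1, Cox6c, Ndufb4, Ndufb4c, Atp5l and Cox7c are named beyond this rule, after their values were seen. The values of 1 member are not reported here by name. Python 3.11.15 and matplotlib 3.10.9 drew the figures.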

Additional observations from a re-analysis of the deposited data

Results flagged for a closer look

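In the 100 sets of 6 values looked at (named members and summed shares in each labelled treatment), 3 held a library far from the others, and chance marks about 1 in 20. Atp5b stood at 1485 CPM in PBS male 3, against 1183 to 1282 CPM in the other PBS libraries. Cox4i2 stood at 1.73 CPM in PBS male 3, against 0.753 to 1.06 CPM in the other PBS libraries. Cox7b2 stood at 0.773 CPM in PBS female 1, against 0.132 to 0.259 CPM in the other PBS libraries, on at most 37 reads. PBS male 3 and PBS female 1 are also the libraries with the highest shares of nuclear and of mitochondrial members. No result met the rule for effects that differ between the sexes.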

How the results depend on the processing

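Members called numbered 0 under every alternative run, in all comparisons. Of 294 values under alternatives for the main results, 280 moved by less than the spread between libraries or kept the same count, and 14, all counts over the whole table, did not. Within that spread the nuclear and mitochondrial medians for treatment turned to 0.05 and 0.03 without PBS female 1 and PBS male 3. Against 0 called, these were 2 genes for treatment in both sexes without libraries against a label and 2 without those against the treatment label, 1 and 1 within females and 1 and 1 within males for the same settings, and, with DESeq2, 3 within males, 1 for the interaction and 8 between the sexes. Between the sexes 8 genes were called without libraries against a label, 1 without those against the treatment label and 4 without PBS female 1 and PBS male 3. Leaving out 1 library at a time gave 0 to 1 genes within males, 1 without collagen domain female 3, and 0 to 5 between the sexes, 5 without PBS male 3. The nuclear median for treatment was -0.18 with hindbrain markers as a covariate, the mitochondrial one stayed between -0.09 and -0.02 with 1 library left out, and the ratio difference between 0.02 and 0.10. Of 613 values for named members, 6 reversed: Ndufa10 at 0.01 without libraries against a label and PBS female 1 and PBS male 3, Ndufb6 at 0.02, Cox7b at 0.07 and Ndufa12 within females at 0.04 without PBS female 1 and PBS male 3, Ndufa12 at 0.04 without PBS female 1 (between -0.30 and 0.04 with 1 library left out), and Ndufv1 within females at 0.01 without libraries against the treatment label; the cause was not tested. Fits without libraries against the treatment label, without PBS female 1 and PBS male 3, or without these 2 and those against a label were chosen after seeing the data. Without libraries against a label, or against the treatment label, a single collagen domain female library remains, assumed to vary like the others, so the calls and the Ndufv1 value within females rest on it. The replicate numbers did not pair the libraries (correlations of -0.384 to 0.572 over 18 pairs, 7 over 0.1), and with a replicate block 0 genes were called for treatment, with medians of -0.14 and -0.06. Of the female and male pairs, all 3 with collagen domain lay over 0.1 (0.301, 0.572 and 0.303) and the 3 with PBS did not (-0.0165, -0.122 and -0.103), and with the block 0 genes were called between the sexes, with medians of 0.06 and -0.04. With 3 libraries a group, changes in the short members that are smaller than their shared spread are beyond reach here. Levels of copied genes depend on how shared reads were counted.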
